A study of Komagataella pastoris with 15 samples.

Results

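Late methanol culture was compared with early methanol culture in Pichia pastoris (given as Komagataella pastoris), a yeast that grows on methanol and here made a foreign product, recombinant human serum albumin (rhHSA), in large fed-batch cultures. The compared samples were chosen by their titles and are 6 of the 15 arrays of the series: 3 arrays from the end of fermentation, when the labels put rhHSA at 220 mg/L after a decrease, and 3 arrays from cells described as fully adapted to methanol as their only carbon source. Each phase was sampled once from each of 3 fermentors of 40 L, and every array carries total RNA of whole cells labelled with a single dye, Cy3. The other 9 arrays come from the same fermentors in logarithmic growth, at the close of glycerol feeding (starved of carbon for 40 min), and at the labelled peak of rhHSA expression. For the main comparison they entered the fit to estimate the difference between scans and the spread between arrays. Changes that involve their phases are also given below, for context. All phases share the producing strain, whose genotype and expression cassette the labels do not describe, so no untransformed strain serves as a control.

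P. pastoris can live on methanol by oxidising it to formaldehyde in peroxisomes, where alcohol oxidase releases hydrogen peroxide that catalase removes. Formaldehyde is then either burned to carbon dioxide for energy or joined to a sugar phosphate to build biomass. In production processes of this kind cells are first grown on glycerol, which keeps the methanol genes repressed, and are then fed methanol, which switches on the promoters of those genes and any product gene placed behind them. The files name each transcript by a locus tag alone, and none of the 5039 tags (0) was found among 5305 entries of the reference gene table. The enzymes of the methanol pathway were therefore not analysed here, the labelled growth on methanol could not be checked against them, and results are given for all tags together and for the 2 largest rises and 2 largest falls. No sequence is shown for the same reason.

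The arrays came from 2 scans, and this bears on every value. All 3 end of fermentation arrays and methanol array 1 were on scan 1, together with array 1 of each other phase, whereas methanol arrays 2 and 3 were on scan 2. The fitted difference between scans had a standard deviation (SD) of 0.73 log2 units over tags and passed the limma test for 3941 of 5024 tags. Changes are therefore given from a limma fit of all 15 arrays with scan as a block, and the change on scan 1 alone is set beside them. In all phases but the end of fermentation, scan 1 held fermentor 1 and scan 2 held fermentors 2 and 3. A difference between those fermentors cannot be told apart from the fitted scan difference. The number of arrays limits the precision. Between 98.9% and 99.96% of probes were well above background on each of the 6 arrays. Saturation touched no more than 4 spots of any of them.

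The end of fermentation arrays were nearly identical to each other, and the methanol arrays were not. Between pairs of end of fermentation arrays the SD of the log2 difference over tags was 0.118, 0.127 and 0.139. Between methanol arrays 2 and 3, which share scan 2, it was 0.407. Differences between replicate arrays exceeded the noise between the 3 spots of a probe, at an unadjusted p below 0.05, for 7.13% to 11.7% of tags in the end of fermentation pairs and for 55.7% in the methanol pair. Such closeness was not particular to the end of fermentation. By the same measure, arrays 2 and 3 differed for 9.96% of tags at the end of glycerol feeding and for 2.38% in logarithmic growth. At the labelled rhHSA peak the share was 50.1%. The labels name 3 separate fermentors at the end of fermentation, but the spread between those arrays is little more than that between spots. Whether they share RNA was not tested. The p-values below rest on a spread pooled over the arrays of all phases. It includes the near-identical arrays of the end of fermentation, logarithmic growth and the end of glycerol feeding. That spread may not be the spread between cultures.

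Most tested tags differed between the end of fermentation and methanol-adapted cells, many of them by small amounts. Of 5024 tags tested, 3668 (73.0%) differed by limma with a Benjamini-Hochberg adjusted p below 0.05. At the end of fermentation 1702 tags (33.9%) were higher and 1966 (39.1%) were lower. The median change was 0.77 on the log2 scale, or 1.71-fold, among the tags that rose, and -0.89, or 1.85-fold, among those that fell. Over all tested tags the median change was -0.07, and the values from the 10th to the 90th percentile ran from -1.37 to 1.07.

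Large falls were more numerous than large rises. By at least 2-fold, 556 tags (11.1%) rose and 856 (17.0%) fell. By at least 4-fold, 81 tags (1.61%) rose and 163 (3.24%) fell, and by at least 8-fold 16 rose (0.318%) and 20 fell (0.398%). At 16-fold or more there was 1 rise (0.0199%) and there were 5 falls (0.0995%). This excess changed with how the arrays were scaled. With quantile normalization, which forces a common distribution on the arrays, 1860 tags were higher and 1702 lower when changes of any size were counted. At 2-fold or more it left a smaller excess of falls, with 638 rises and 695 falls. In the authors' deposited log2 values, tested in the same way for 3915 tags, 1610 were higher and 1433 lower. At 2-fold or more they held 534 rises and 534 falls. The main fit was not recounted on those 3915 tags, so the different set of tags cannot be told apart from the different scaling.

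**Figure D1:**
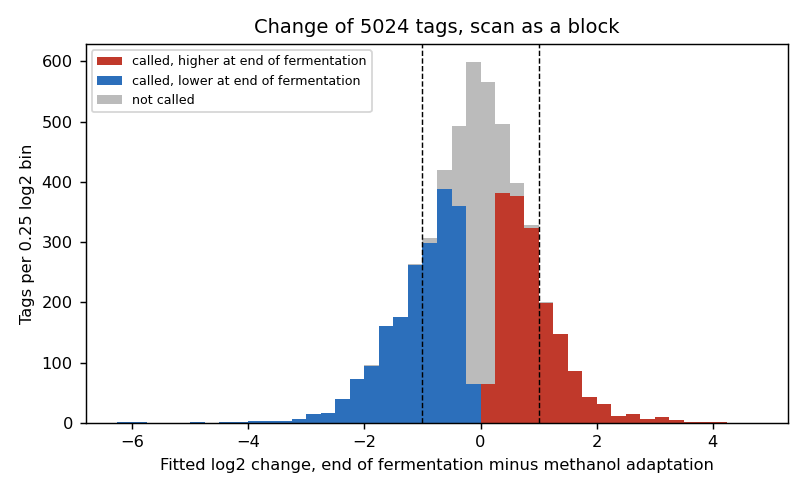
Number of tags (vertical axis) by fitted log2 change at the end of fermentation relative to methanol adaptation (horizontal axis, bins of 0.25), with called tags in red (higher) and blue (lower) and tags that did not pass in grey. Dashed lines mark a 2-fold change; 556 called tags lie at or beyond the right line and 856 at or beyond the left one.

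Changes within a single scan were also counted. Of 4649 tags with a value on all 4 arrays concerned, the 3 end of fermentation arrays all lay above methanol array 1 for 1996 tags (42.9%) and all below it for 2407 (51.8%). With only 1 methanol array there, and end of fermentation arrays that differ little from each other, these counts carry no test. Over the 6 arrays as measured, with the difference between scans left in, 2659 called tags (52.9% of those tested) had no overlap between the phases and lay on that side of methanol array 1, 1220 of them higher (24.3%) and 1439 lower (28.6%).

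The changes were also taken by fermentor number, where any likeness between numbers on the end of fermentation side rests on the near-identical arrays described above. For fermentors 2 and 3 the scan difference measured in the other 3 phases was removed from the methanol value, so that the 2 estimates share no array of either phase. In those 3 phases the scan difference also holds any difference of fermentors 2 and 3 from fermentor 1. The 2 estimates correlated over 4381 tags at r = 0.975, and 93.2% of the tags had the same direction (tags are not independent replicates). Of 497 tags at least 2-fold higher in fermentor 1, 496 were also higher in fermentors 2 and 3, with a median change of 1.38 in fermentor 1 and 1.39 in the others. Of 741 at least 2-fold lower in fermentor 1, 739 were also lower in the others, with a median change of -1.45 in fermentor 1 and -1.49 in the others. Fermentors 2 and 3 correlated with each other at r = 0.915. This value compares 2 single estimates that share the same scan correction, whereas 0.975 uses the mean of fermentors 2 and 3. The values are therefore unlike measures, and their difference is not read further.

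**Figure D2:**
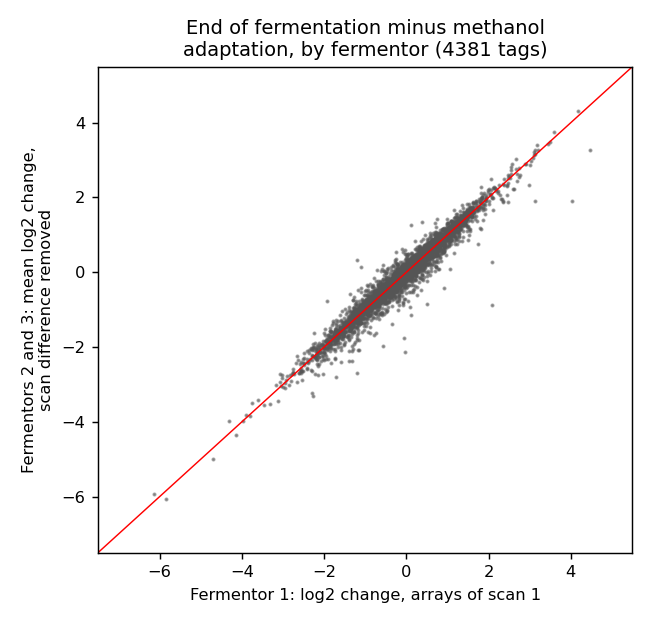
Log2 change at the end of fermentation relative to methanol adaptation in fermentor 1 (horizontal axis, scan 1 only) against the mean of fermentors 2 and 3 (vertical axis, scan difference removed), 1 point per tag for 4381 tags. The red line marks equal change, and the points lie along it (r = 0.975).

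PAS_chr2-1_0642 had the largest fitted rise among tags whose 6 arrays did not overlap. Its level, as log2 signal with the 75th percentile of the array subtracted, was 0.29, 0.39 and 0.20 on end of fermentation arrays 1 to 3, against -3.88, -3.57 and -3.17 on methanol arrays 1 to 3. The phases were far apart on every array, with means of 0.29 ± 0.098 at the end of fermentation and -3.54 ± 0.35 in methanol-adapted cells (SD, n = 3 each; the methanol SD includes the difference between scans). The fitted change was 4.24 ± 0.11 (SE), or 18.9-fold, with a limma adjusted p of 4.40e-11, and on scan 1 alone it was 4.17. The rise was of like size in each fermentor, at 4.16, 4.61 and 4.01 in fermentors 1 to 3.

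This rise set the end of fermentation apart from all earlier phases. The level of PAS_chr2-1_0642 lay between -4.32 and -3.66 at the end of glycerol feeding, between -4.19 and -3.42 in logarithmic growth and between -3.80 and -3.26 in the arrays labelled rhHSA peak. In the same fit it was higher at the end of fermentation than at the labelled peak by 4.15 ± 0.11 (SE; limma adjusted p = 2.02e-11). It was higher than in logarithmic growth by 4.38 ± 0.11 (SE; limma adjusted p = 1.13e-11). Between the labelled peak and methanol adaptation the difference was 0.092 ± 0.095 (SE) and did not pass the test (limma adjusted p = 0.394).

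PAS_chr3_1035 had the next largest fitted rise and a low signal in every phase. Its rise was the larger of the 2 with quantile normalization (4.65 against 4.25) and on scan 1 alone (4.27 against 4.17). The 6 arrays with a scan block repeat the latter values, as both rest on methanol array 1. Its level was -4.35, -4.73 and -4.56 on end of fermentation arrays 1 to 3, against -8.81, -7.69 and -7.30 on methanol arrays 1 to 3. All 6 arrays had it well above background. That the phases did not overlap was a condition for naming a tag. The fitted change was 3.82 ± 0.41 (SE), or 14.1-fold (limma adjusted p = 3.42e-06). By fermentor the change was 4.46, 3.38 and 3.15 in fermentors 1 to 3, so its size is less certain than that of PAS_chr2-1_0642. The level was also low in the other phases, between -7.14 and -6.90 in logarithmic growth and down to -9.43 at the labelled peak, where only 1 of 3 arrays had it well above background.

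Among tags whose arrays did not overlap, PAS_chr3_0448 and PAS_chr4_0501 had the largest fitted falls, of nearly equal size. Their order turned in some of the alternative settings. The level of PAS_chr3_0448 was -5.51, -5.48 and -5.63 on end of fermentation arrays 1 to 3, against 0.61, 1.87 and 1.27 on methanol arrays 1 to 3. No array of either phase came near the other, with means of -5.54 ± 0.076 at the end of fermentation and 1.25 ± 0.63 in methanol-adapted cells (SD, n = 3 each). The fitted change was -6.03 ± 0.15 (SE), which is 65.2-fold lower, with a limma adjusted p of 4.40e-11, and on scan 1 alone it was -6.15. In fermentors 1 to 3 the changes were -6.12, -6.14 and -5.69.

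The high level of PAS_chr3_0448 was seen in methanol-adapted cells and in no other phase. It was -4.40, -3.09 and -3.40 on the arrays labelled rhHSA peak, and lay between -5.08 and -3.72 at the end of glycerol feeding and between -4.53 and -3.35 in logarithmic growth. The end of fermentation level was also below these phases, with a difference of -1.14 ± 0.15 (SE; limma adjusted p = 1.90e-05) against the labelled peak. From logarithmic growth the change was -1.02 ± 0.15 (SE; limma adjusted p = 6.09e-05). From the end of glycerol feeding it was -0.58 ± 0.15 (SE; limma adjusted p = 0.00393), so the fall went past the level held before methanol feeding began.

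PAS_chr4_0501 fell by a like amount. Its level was -5.66, -5.98 and -5.89 on end of fermentation arrays 1 to 3, against 0.18, -2.08 and -1.90 on methanol arrays 1 to 3. The methanol values split by scan, array 1 being on scan 1, and the fitted scan difference of this tag was -2.14 (scan 2 minus scan 1). With that difference in the fit the change was -6.0 ± 0.32 (SE), or 64.0-fold lower (limma adjusted p = 8.00e-09), and on scan 1 alone it was -6.02. Without a scan block the change was -4.58, with a limma adjusted p of 0.00083.

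PAS_chr4_0501 was already high before methanol feeding. At the end of glycerol feeding its level was 0.36, -1.63 and -1.55 on arrays 1 to 3, and the difference of methanol adaptation from it, -0.33 ± 0.29 (SE), did not pass the test (limma adjusted p = 0.339). Methanol-adapted cells exceeded logarithmic growth by 3.11 ± 0.29 (SE; limma adjusted p = 7.12e-07). The arrays labelled rhHSA peak were already lower than methanol adaptation, by a change of -4.19 ± 0.29 (SE; limma adjusted p = 5.58e-08), and the end of fermentation lay below them by a further change of -1.81 ± 0.32 (SE; limma adjusted p = 0.000249).

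**Figure D3:**
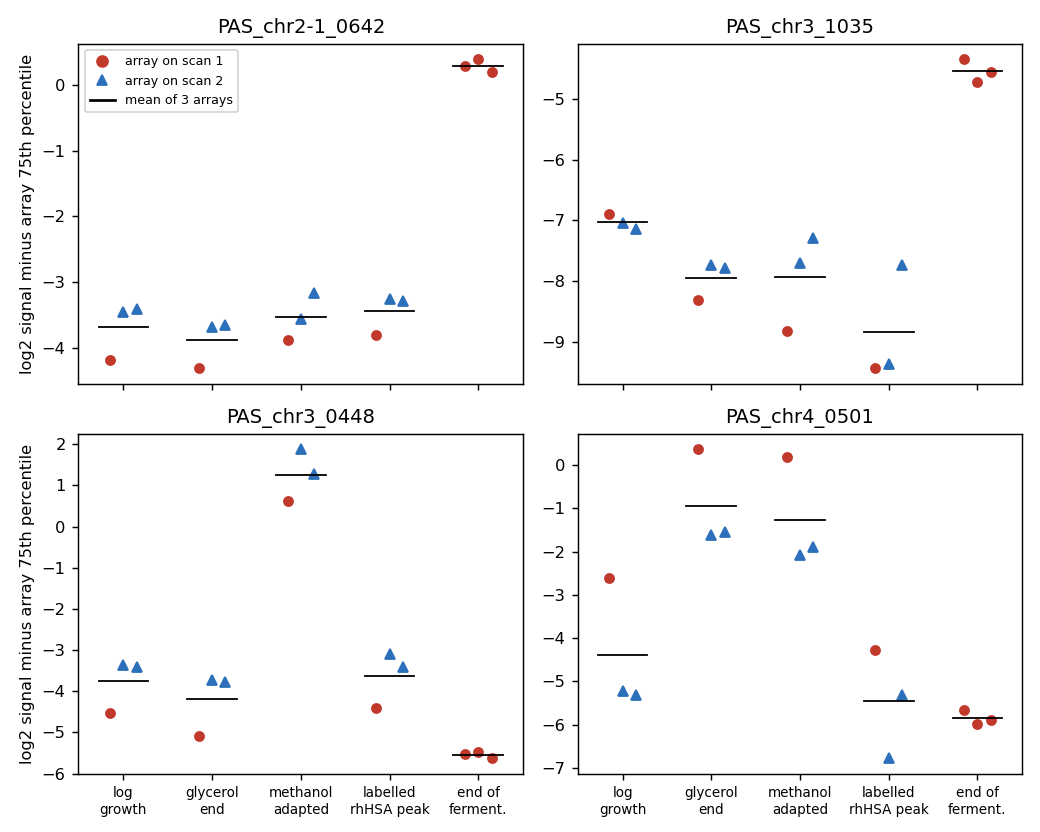
Level of the 4 tags on each array (vertical axes, log2 signal minus the 75th percentile of the array) in the 5 phases in process order (horizontal axes), with red circles for scan 1, blue triangles for scan 2 and a black bar for the mean of 3 arrays. The end of fermentation arrays of PAS_chr2-1_0642 lie between 0.20 and 0.39, higher than all other arrays, and those of PAS_chr3_0448 between -5.63 and -5.48, far below the methanol arrays.

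The comparison was next set against the earlier change from logarithmic growth to methanol adaptation, using arrays that it does not share. That earlier change also covers the starvation at the end of glycerol feeding, by which point 490 tags were at least 2-fold higher and 528 lower than in logarithmic growth. From there to methanol adaptation the counts were 135 and 290, with scan as a block. The change at the end of fermentation was taken on scan 1 (3 arrays against methanol array 1) and the change from logarithmic growth to methanol adaptation on scan 2 (arrays 2 and 3 of each phase), so that no array and no scan entered both. The phase of methanol adaptation is common to them, through different fermentors. It is subtracted in the late change and added in the earlier change. Its level alone therefore pulls the changes in opposite directions, and a return to an earlier state cannot be read from them. Over 4335 tags the changes ran in opposite directions, at r = -0.475, given as a description across tags.

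Most tags with a large late change differed the other way in the earlier comparison, as the shared methanol level by itself favours. The shares of all tags given beside them do not allow for this. Among 478 tags at least 2-fold higher at the end of fermentation, with each of its 3 arrays above methanol array 1, 83.3% were lower in methanol-adapted cells than in logarithmic growth on scan 2, against 55.1% of all tags. By at least 2-fold 51.3% were lower, against 19.9% of all tags, and 4.60% were higher, against 13.0%. Among 777 tags at least 2-fold lower at the end of fermentation, 76.3% were higher in methanol-adapted cells than in logarithmic growth, against 44.9% of all tags. By at least 2-fold 35.1% were higher, against 13.0% of all tags. The medians of this earlier change were -1.02 for the tags that were higher late, 0.68 for those that were lower late and -0.14 for all tags.

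**Figure D4:**
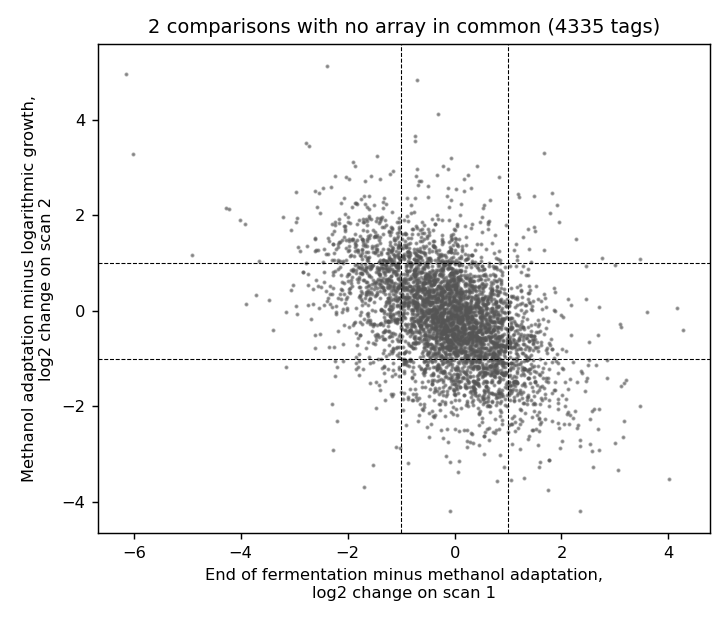
Log2 change at the end of fermentation relative to methanol adaptation on scan 1 (horizontal axis) against the log2 change of methanol adaptation relative to logarithmic growth on scan 2 (vertical axis), 1 point per tag for 4335 tags. Dashed lines mark 2-fold changes, and the cloud slopes downward (r = -0.475). Methanol adaptation enters both axes with opposite sign, which by itself favours such a slope.

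Other steps of the process were read in the same way, each from scan 2 arrays. The change from logarithmic growth to the starved end of glycerol feeding, which includes no methanol array, correlated with the late change at r = -0.367 over 4387 tags. The starved cells were nonetheless close to methanol adaptation across tags (r = 0.967 on scan 1 and 0.968 on scan 2). Their level therefore also favours opposite directions, and the shares of all tags below do not allow for this. Of 485 tags at least 2-fold higher at the end of fermentation, 77.1% were lower in starved cells than in logarithmic growth, against 48.8% of all tags. Of 794 at least 2-fold lower, 74.2% were higher in starved cells, against 51.2% of all tags. The step between the starved cells and methanol adaptation, which again shares the methanol phase with the late change, correlated at r = -0.318 over 4332 tags.

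The arrays labelled rhHSA peak, which stand between the compared phases in the process, differed from methanol adaptation in the same direction for most of these tags. Both changes subtract methanol adaptation, so its level alone favours a like direction. Whether these arrays are a step towards the end of fermentation cannot be read from this. Their change from methanol adaptation on scan 2 correlated with the late change on scan 1 at r = 0.340 over 4041 tags. Of 457 tags at least 2-fold higher at the end of fermentation, 73.5% were also higher in the arrays labelled rhHSA peak, with a median of 0.64, against 52.3% and a median of 0.044 for all tags. Of 741 at least 2-fold lower, 70.4% were also lower there, with a median of -0.41. These arrays correlated most closely with logarithmic growth on scan 1 (r = 0.976) and on scan 2 (r = 0.975), so whether they hold the phase their label names is in doubt.

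Across tags, the end of fermentation stood about as far from each earlier phase. On scan 1 the mean of its arrays correlated across tags at r = 0.921 with methanol adaptation, 0.927 with the end of glycerol feeding, 0.913 with logarithmic growth and 0.902 with the labelled peak. A distance of about this size also occurred between earlier phases, as methanol adaptation correlated there at 0.896 with logarithmic growth. Other earlier phases were closer. Methanol adaptation correlated at 0.967 with the end of glycerol feeding, and the labelled peak at 0.976 with logarithmic growth. Each earlier phase has a single array on scan 1, whereas the end of fermentation value is a mean. With scan as a block, 3888 tags (77.4%) differed between the end of fermentation and the labelled peak and 3728 (74.2%) between it and logarithmic growth, beside the 73.0% found against methanol adaptation. These comparisons share the end of fermentation arrays, and the differences between the percentages were not tested.

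The late changes were spread over all groups of locus tags, taken by the prefix that is part of each name in the files (such as chr3 in PAS_chr3_0448). Among the 7 prefixes with the most tags, between 71.7% (chr1-1) and 74.0% (chr1-3) of tags were called, beside 73.0% overall. In these prefixes 10.2% to 12.4% of tags were at least 2-fold higher and 15.3% to 19.5% at least 2-fold lower. The small prefix c121, picked out after its values were seen, had 7 of 18 tags (38.9%) at least 2-fold lower and 1 higher. No test was made of it.

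**Figure D5:**
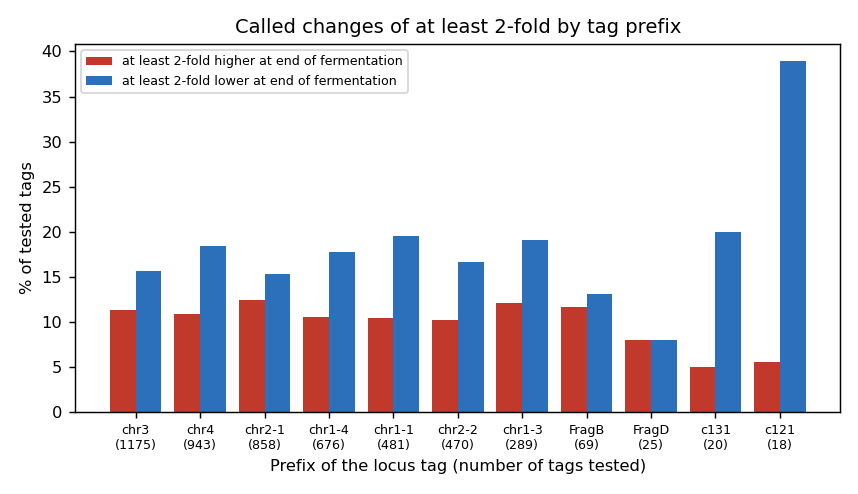
Share of tested tags (vertical axis, %) that were called and at least 2-fold higher (red) or lower (blue) at the end of fermentation than at methanol adaptation, by prefix of the locus tag (horizontal axis, number of tags tested below each). Bars of the 7 large prefixes range from 10.2% to 12.4% for rises and from 15.3% to 19.5% for falls, and the small prefixes vary more.

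Tags with consecutive numbers changed together only weakly. The change of a tag in fermentor 1 correlated with that of the tag numbered 1 higher in fermentors 2 and 3 at r = 0.0982 over 4122 pairs. At distances of 2, 3 and 4 the values were 0.0692, 0.0345 and 0.0548. Of 527 tags at least 2-fold higher with a tested tag numbered 1 higher, that tag was at least 2-fold higher too for 15.9%, beside 11.1% of all tags. For 816 tags at least 2-fold lower the share was 22.8%, beside 17.0% of all tags.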

How the data were processed

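Each array was hybridised with Cy3-labelled cRNA. Per the file headers, spots were extracted with Agilent Feature Extraction 10.7.3.1 (the submitters' processing notes name 9.1), and the deposited intensity is background-subtracted within the array, on a linear scale. The authors also deposited log2 values for 3915 tags, whose normalization and centring are not given in the sources used here. Medians of these columns ran from 12.6 to 12.7. Set against the scanner values of the same arrays they correlated at 0.983 to 0.988 across tags, which fits a log2 scale that runs the same way as the signal; the centring rule is unknown. The 0/1 flags are the scanner software's.

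Starting from scanner intensity, log2 of the processed signal minus the 75th percentile of each array was averaged over the 3 spots of a probe, leaving out spots that the software flagged (non-uniform, or outliers of their population); 2.26% of probe values were missing. Tags well above background (2 of 3 spots) on all arrays of a phase were tested. limma 3.58.1 (R 4.3.3, jsonlite 2.0.0) fitted phase and scan to 15 arrays, with Benjamini-Hochberg adjustment and a threshold of 0.05; where a tag lacked an array the fit used the rest. Descriptions used Python 3.11.15, pandas 2.3.3 and numpy 2.4.6, and figures matplotlib 3.10.9. The fit was run on simulated data with independent noise between arrays and few changed tags. The arrays here differ in both respects, so that run lends the calls no support. Named tags are the 2 largest rises and falls among called tags with 6 values, no overlap and the same side of methanol array 1. Gene lists could not be matched and were not used. The members, lists and tests were chosen with earlier results of these data known.

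The labels give fermentor numbers, which pair the phases by culture. Deviations from the phase means correlated between the 2 phases at r = -0.017, 0.23 and -0.31 for fermentors 1 to 3, where scans differ. In logarithmic growth, arrays 2 and 3 differed less than spots of 1 array do (2.38% of tags beyond it) and were averaged as 1 sample in an alternative.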

Additional observations from a re-analysis of the deposited data

How the results depend on the processing

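Across the alternatives run other than scan 1 alone, each of the 4 named tags kept its direction and its side of the threshold, and the counts of 3668 called, 1702 higher and 1966 lower tags stayed within 1.5 times, except that requiring at least 2-fold lowers them by construction to 1412, 556 and 856. PAS_chr4_0501 fell further than PAS_chr3_0448 in the authors' table (-5.66 against -5.51), with quantile normalization (-5.49 against -5.43) and without end of fermentation array 1 (-6.09 against -6.04), methanol array 1 or 2, or the labelled peak arrays. PAS_chr3_1035 had no value in the authors' table or with the filter for all 15 arrays. With fermentor as a replicate block the count was 3498 without a scan block and 3243 with it, and this pairing changed no call of a named tag. The fermentor and scan blocks are told apart there only through the near-identical end of fermentation arrays. Leaving the scan out gave 2712, and treating it as a random block 3614. The 6 arrays alone with a scan block gave 3037, and the changes there rest on methanol array 1, as on scan 1 alone. The count was 3137 with normexp on median signals, 4205 with array weights and 3591 with logarithmic growth arrays 2 and 3 averaged. It was 2763 with all near-identical arrays averaged and 3764 without the arrays labelled rhHSA peak. Scan 1 alone gave 4134, but its lone methanol array is assumed to vary like the near-identical end of fermentation arrays, against the spread of methanol arrays 2 and 3, so this count says nothing about stability. Leaving out 1 array gave 3308 to 3760 called tags. Of the 3668, 2646 were also called without a scan block, each in the same direction, and 3430 kept their direction whether called or not. With median centring 1667 tags were higher and 2008 lower. The share of falls among 2-fold changes was 60.6%, against 52.1% with quantile normalization. The authors' values, which cover fewer tags, held 534 falls and 534 rises. The median change of all tags tested was -0.065, against 0.029 with quantile normalization and 0.044 in the authors' values. The fits with normexp, all near-identical arrays averaged and without the labelled peak were chosen after seeing the data. normexp on mean signals was not run, since the columns used here give median signals.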
